A study of Mus musculus with 4 samples.

Results

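Long non-coding RNAs (lncRNAs) are transcripts that are not read into protein. The clusters described here are stretches of lncRNA exons on which reads of an AGO2 immunoprecipitate (IP) were piled up in newborn mouse brain. A cluster was taken where its midpoint lay, on the same strand, in an exon of a gene that GENCODE types as lincRNA, antisense or processed_transcript, and in no protein-coding exon and no miRNA, snoRNA or scaRNA gene. An imprinted stretch of chromosome 12 was left out. By this rule 363 of 86106 clusters of the Fmr1 knockout IP and 202 of 46860 clusters of the wild-type IP lay on lncRNA exons (0.422% and 0.431%). They fell on 155 genes in all: 124 genes in the knockout-labelled library and 79 in wild type, with 48 in both.

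AGO2 and the RNA bound to it were immunoprecipitated (CLIP) from whole brain at P0, the day of birth. The labels name 4 libraries, an IP and a size-matched input from the FMR1 ko mouse brain and the same pair from wild-type C57BL/6 brain, with 1 library each. C57BL/6 is given as the background strain of both genotypes, and the knockout allele and the number of brains per library are not given. Fmr1 encodes FMRP, the RNA-binding protein missing in fragile X syndrome. With single libraries, what follows compares 2 libraries rather than 2 genotypes, and no test of genotype could be made.

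Library totals are not in the files, but the scores fix the ratios of depth: input over IP was 1.92 in the knockout-labelled pair and 6.34 in the wild-type pair, and knockout-labelled over wild-type IP was 2.28. Fmr1 itself carried 5 clusters in the knockout-labelled IP and 2 in the wild-type IP, none enriched. Without the allele this does not check the label, so the library is called knockout-labelled. All 5 neuron markers examined (Map1b, Mapt, Tubb3, Stmn2 and Dcx) carried clusters in both IPs, 164 in the knockout-labelled and 133 in the wild-type library. Of the 2 liver markers, taken as an absent tissue, none carried a cluster in the knockout-labelled IP and 1 did in wild type, with 1 cluster.

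AGO2 is the Argonaute protein that carries miRNAs to the RNAs they pair with, mostly through the seed, the bases near the 5′ end of the miRNA. Most known AGO2 sites lie in 3′ UTRs of mRNAs, but lncRNAs in the cytoplasm can also be bound. Cyrano (1700020I14Rik, Oip5os1 in RefSeq) is the best studied case in brain: it pairs with miR-7 along most of the length of that miRNA and brings about its destruction. H19 is an imprinted, maternally expressed RNA that hosts miR-675 and is abundant before birth.

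The sequences that the results below turn on are those of Cyrano, H19 and 2 short, strongly covered sites. The miR-7 site of Cyrano (mm10, chr2:119602137-119602161, plus strand) is 25 bases long. The 8 bases in capitals pair with the seed of miR-7 and the A opposite its first base, and the first 13 bases pair with the 3′ end of the miRNA. Mature miRNAs are from RefSeq (GRCm38.p6), with seed bases 2 to 8 in capitals, and all other sequences are of the mm10 genome on the strand of the gene.
miR-7a-5p: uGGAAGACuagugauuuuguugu
Cyrano miR-7 site: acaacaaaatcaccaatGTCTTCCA
The most heavily covered Cyrano cluster of the knockout-labelled IP (chr2:119602190-119602268) begins 28 bases after that site and holds no match to any of the 11 seeds sought.
Cyrano strongest cluster: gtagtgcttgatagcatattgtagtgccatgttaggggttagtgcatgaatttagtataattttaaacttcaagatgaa
Further along Cyrano, 3 enriched clusters of the knockout-labelled IP hold matches to the miR-30 seed, shown in capitals; they lie at chr2:119602624-119602709, chr2:119604577-119604640 and chr2:119604776-119604798.
miR-30a-5p: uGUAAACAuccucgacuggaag
Cyrano first miR-30 cluster: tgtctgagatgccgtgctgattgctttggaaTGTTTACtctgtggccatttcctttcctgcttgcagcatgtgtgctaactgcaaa
Cyrano second miR-30 cluster: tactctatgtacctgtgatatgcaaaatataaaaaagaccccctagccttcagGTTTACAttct
Cyrano last miR-30 cluster: actgcttaTGTTTACActgattt
The strongest H19 cluster of wild type (chr7:142575781-142575857, minus strand) contains that of the knockout-labelled IP (chr7:142575792-142575818), whose 27 bases are also given on their own.
H19 strongest wild-type cluster: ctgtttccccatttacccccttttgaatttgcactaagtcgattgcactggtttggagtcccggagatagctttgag
H19 strongest knockout-labelled cluster: cgattgcactggtttggagtcccggag
The last pair are the 19 bases spanned by 2 abutting clusters on Gm16599 (chr5:136395268-136395286, plus strand) and the single cluster on Gm17494 (chr3:122292945-122292985, minus strand).
Gm16599 clusters: ctcgtgtagcacagactac
Gm17494 cluster: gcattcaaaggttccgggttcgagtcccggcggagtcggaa

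A cluster is called enriched here where its -log10 p and its log2 of IP over input both reach 3. Both scores are the authors', scaled to library depth. Of the lncRNA clusters, 38 of 363 were enriched in the knockout-labelled library (10.5%, exact 95% interval 7.52 to 14.1), where 3.08% of all clusters were. In wild type 66 of 202 were enriched (32.7%, 26.3 to 39.6), where 24.1% of all clusters were. Intervals cover counting error only. Clusters in 3′ UTRs were enriched in 8.89% of cases in the knockout-labelled library and 37.0% in wild type, and those in coding sequence in 1.65% and 21.2%. The limits ask more of the shallower input: against at most 1 input read, 9 IP reads were needed in the knockout-labelled library and 5 in wild type.

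**Figure D1:**
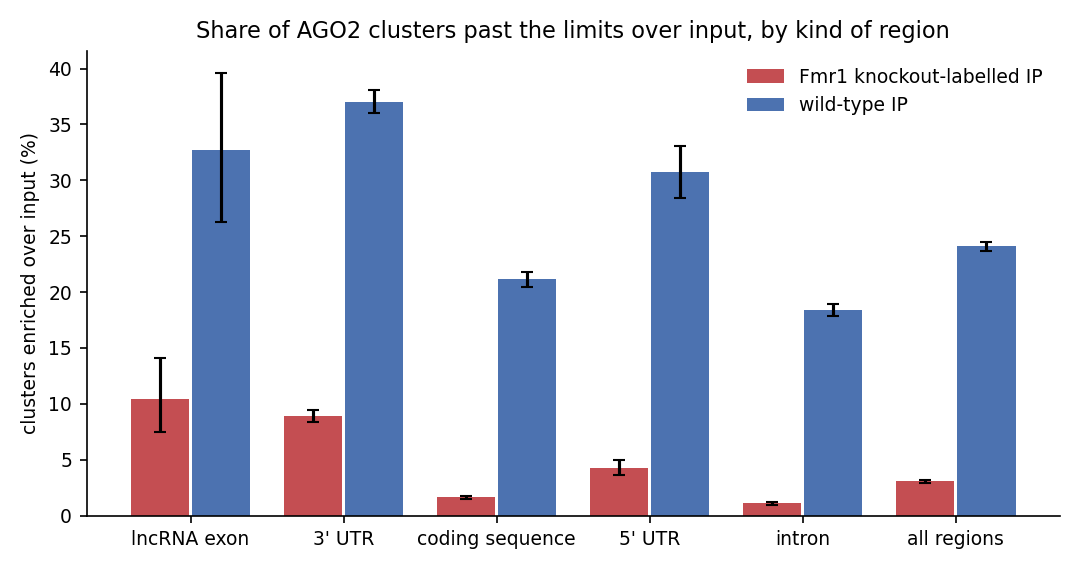
Share of AGO2 clusters enriched over input (percent, y axis) by kind of region (x axis) in the Fmr1 knockout-labelled IP (red) and the wild-type IP (blue); error bars are exact 95% binomial intervals. The lncRNA bars, 10.5% and 32.7%, lie above the bars for all regions, 3.08% and 24.1%, in either library.

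Few genes made up this share. In the knockout-labelled library the 38 enriched clusters lay on 9 genes, and 31 of them on 3: 14 on 1700020I14Rik (Cyrano), 9 on H19 and 8 on Gm26917. With these 3 genes left out, a setting chosen after the data had been seen, 7 of 326 clusters were enriched (2.15%, interval 0.868 to 4.37). The 3.08% of all clusters lies within that interval. In wild type the 66 enriched clusters lay on 32 genes, led by 1700020I14Rik with 11, H19, AI504432 and Zswim6 with 5 each, and Neat1 and Gm26917 with 4 each. Without Cyrano, H19 and Gm26917, 46 of 179 wild-type clusters were enriched (25.7%, 19.5 to 32.8), beside 24.1% of all clusters. All 9 genes with an enriched cluster in the knockout-labelled library also had one in wild type, and 23 genes had one in wild type alone.

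Most other lncRNA clusters rested on few reads. At most 5 IP reads lay behind 198 of the 294 clusters with recovered reads in the knockout-labelled library and behind 127 of 191 in wild type. A score of 3 IP reads against at most 1 input read stood behind 78 clusters in the knockout-labelled library and 52 in wild type. Of the lncRNA clusters with 20 or more recovered IP reads, 24 of 37 were enriched in the knockout-labelled library (64.9%), beside 42.3% of all such clusters. In wild type 18 of 29 were (62.1%), beside 82.9% of all such clusters, so at this coverage the lncRNA share was the lower one there. Reads were not recovered for 69 lncRNA clusters of the knockout-labelled library, 59 of them below 0 and 2 enriched. Nor were they for 11 of wild type, all below 0, so these lncRNA shares lean high. By gene type, lincRNA exons held 33 enriched of 199 clusters in the knockout-labelled library and 45 of 115 in wild type. Antisense genes held 3 of 66 and 9 of 41, and processed transcripts 2 of 98 and 12 of 46.

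The types are those of GENCODE M21, and RefSeq names some of these genes otherwise. Of the 155 genes, 118 were matched to RefSeq by symbol, 98 of them as lncRNA and 14 as protein-coding, among them Zswim6, Tmem134, Cct6a and 4930563E22Rik. Midpoints of 37 clusters of the knockout-labelled library lay in a RefSeq mRNA exon, 1 of them enriched, and of 22 wild-type clusters, 12 of them enriched. Without these and the clusters in RefSeq tRNA genes, the enriched share was 11.1% in the knockout-labelled library and 29.6% in wild type.

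Cyrano carried the most enriched lncRNA clusters in both libraries. Its gene lies on mm10 chromosome 2, 119594297 to 119607502, plus strand, with 8306 exonic bases in GENCODE. In the knockout-labelled library 14 of its 20 clusters were enriched, with log2 over input from 0.72 to 5.94 and a median of 3.52. In wild type 11 of 13 were enriched, from 3.08 to 7.71 with a median of 5.99. RefSeq ends the gene at 119600746, so most of these clusters lie only in the long last exon of the GENCODE model (119599588 to 119607502).

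No cluster of either library covered the miR-7 site, but clusters flanked it closely. Downstream, the knockout-labelled cluster at 119602190 to 119602268, printed above, held 80 IP reads against 8 input reads (log2 4.26), and the wild-type cluster at 119602192 to 119602266 held 82 against 8 (6.02). These start 28 and 30 bases after the site. Upstream, a cluster at 119602046 to 119602074 held 21 reads against at most 1 in the knockout-labelled library (5.33), and one at 119602039 to 119602075 held 27 against at most 1 in wild type (7.42). They end 62 and 61 bases before the site.

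The highest log2 on Cyrano stood further upstream. The cluster at 119600259 to 119600342 held 32 IP reads against at most 1 input read in the knockout-labelled library (5.94), and that at 119600254 to 119600315 held 33 against at most 1 in wild type (7.71). Of the clusters with a miR-30 match, the first held 42 IP and 7 input reads in the knockout-labelled library (3.52), and its wild-type counterpart at 119602636 to 119602702 held 60 and 3 (6.99). The cluster at 119604776 held 10 reads against at most 1 in the knockout-labelled library (4.26) and 12 against 3 in wild type (4.66). The cluster at 119604577, with 22 reads against 3 (3.81), had no wild-type cluster within 50 bases.

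**Figure D2:**
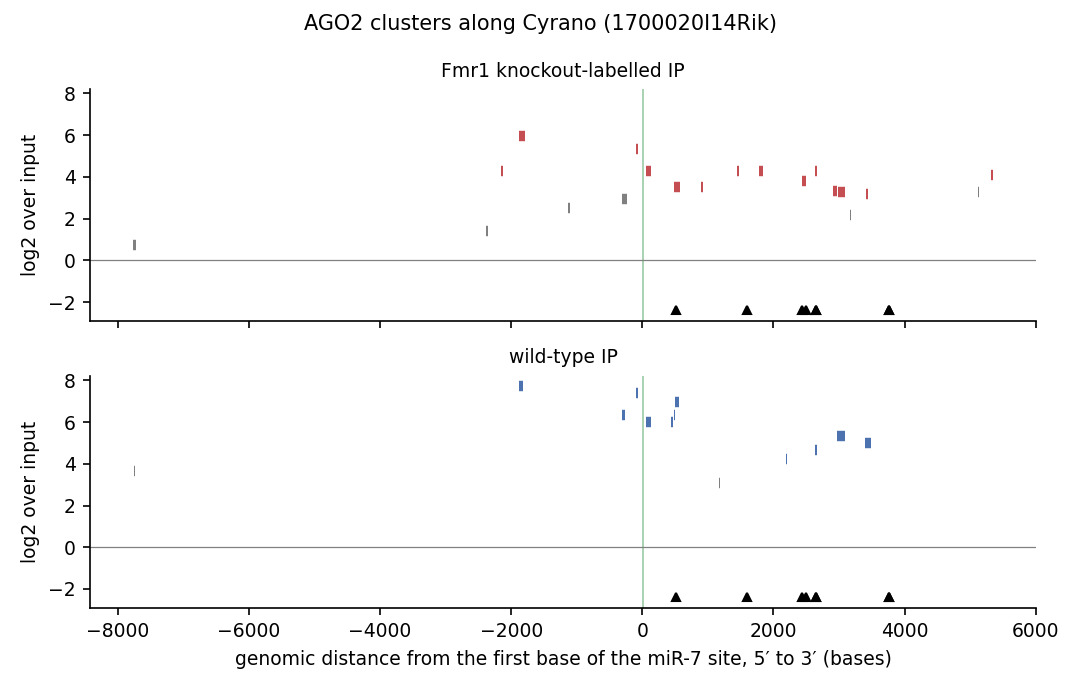
Clusters along Cyrano in the Fmr1 knockout-labelled IP (top) and the wild-type IP (bottom), by genomic distance in bases from the first base of the miR-7 site (x axis, green band) and log2 of IP over input (y axis). Coloured bars are enriched clusters, grey bars are not, and black triangles mark miR-30 seed matches in the exons; enriched clusters stand on both sides of the green band and none lies on it.

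H19 was the only gene besides Gm16599 and Gm17494 whose clusters were all enriched in both libraries. It lies on chromosome 7, 142575529 to 142578143, minus strand, and is short, with 2460 exonic bases. All 9 clusters of the knockout-labelled library were enriched (log2 4.40 to 8.39, median 5.44), as were all 5 of wild type (6.17 to 7.59, median 6.89). The strongest, near the 3′ end, held 175 IP reads against at most 1 input read in the knockout-labelled library (8.39), and 182 against 6 in wild type (7.59). Near miR-675, within 200 bases of its gene, the knockout-labelled library had clusters at 142576957 to 142576991 with 33 reads against 2 (4.98) and at 142576992 to 142577033 with 22 against 2 (4.40). One lay there in wild type, at 142576956 to 142577025 with 40 against 3 (6.40). One H19 cluster, at 142576445 to 142576466 with 18 reads against at most 1 (5.11), had no wild-type cluster within 50 bases.

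Gm26917 and its neighbour Gm42418 on chromosome 17 are lincRNAs in GENCODE, but RefSeq gives Gm42418 as Rn18s-rs5, a pseudogene related to 18S ribosomal RNA, and Gm26917 ends just upstream of it. Reads of such repeated sequence may come from other copies, so their place is uncertain. Gm26917 had 8 enriched clusters of 8 in the knockout-labelled library (log2 3.40 to 5.52) and 4 of 5 in wild type (-0.53 to 4.79). In the knockout-labelled library 227 IP reads stood against 15 input reads at 39844086 to 39844162 (4.86), and the one at 39844074 to 39844235 held 35 and 8 in wild type (4.79). Gm42418 had 3 clusters in the knockout-labelled library (1.69 to 2.61) and 2 in wild type (1.56 and 2.99), none enriched.

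The other genes enriched in both libraries had 1 or 2 such clusters in the knockout-labelled library. On Gm16599, an antisense gene within Cux1, the abutting pair printed above held 33 IP reads against at most 1 input read in each part in the knockout-labelled library (5.98), and 13 against at most 1 in wild type (6.36). Equal reads in abutting parts may be the same reads. No GENCODE miRNA gene and none of the RefSeq hairpins used lies within 200 bases of the pair. The Gm17494 cluster lies on a tRNA gene of RefSeq, n-TRtct2, a nuclear tRNA for arginine. It held 34 reads against 2 in the knockout-labelled library (5.03) and 27 against 8 in wild type (4.42).

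On A830082K12Rik, an antisense gene, a cluster with a miR-125 match held 16 reads against 3 in the knockout-labelled library (3.35) and 8 against 2 in wild type (4.66). On 5330434G04Rik, on chromosome X, the cluster at 105349609 to 105349631 held 9 reads against at most 1 in the knockout-labelled library (4.11), and that at 105349606 to 105349631 held 6 against at most 1 in wild type (5.25). AI504432 had 1 enriched cluster of 9 in the knockout-labelled library, with 10 reads against 2 (3.26), and 5 of 10 in wild type, the highest with 12 against at most 1 (6.25). Zswim6 had 1 of 15 in the knockout-labelled library, with 11 against 2 (3.40), and 5 of 6 in wild type, the most heavily covered with 13 against 2 (5.36).

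Long RNAs that are kept in the nucleus had 8 enriched of 74 clusters in the knockout-labelled library (10.8%, beside 3.08% of all clusters), all 8 on Gm26917. In wild type they had 12 of 46 (26.1%, beside 24.1% of all clusters), with 4 of the 12 on Gm26917. The place of the Gm26917 reads is uncertain, as said above. No other RNA of this list had an enriched cluster in the knockout-labelled library, and the wild-type share without Gm26917 was not computed. Of the 14 sought, 9 had clusters in the knockout-labelled library and 5 in wild type. Malat1, the abundant RNA of nuclear speckles, had no enriched cluster of 21 in the knockout-labelled library (log2 -2.23 to 2.93, median -1.16) and 1 of 13 in wild type (-1.32 to 3.99, median -0.24). The same spot led in both: 5798725 to 5798773 with a log2 of 2.93 in the knockout-labelled library, just under the limit, and 5798733 to 5798806 with 221 IP and 88 input reads in wild type (3.99). Miat, an RNA of neurons and retina, had 0 enriched of 21 and 2 of 12. Neat1, the scaffold of paraspeckles, had 0 of 6 in the knockout-labelled library (-0.80 to 3.26) and 4 of 11 in wild type (-0.45 to 5.25), each of the 4 resting on 5 or 6 IP reads. Tug1 had 0 of 7 and 1 of 5, and Firre, an X-linked RNA that organises chromatin, had 8 clusters in the knockout-labelled library, none enriched, and no cluster in wild type.

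**Figure D3:**
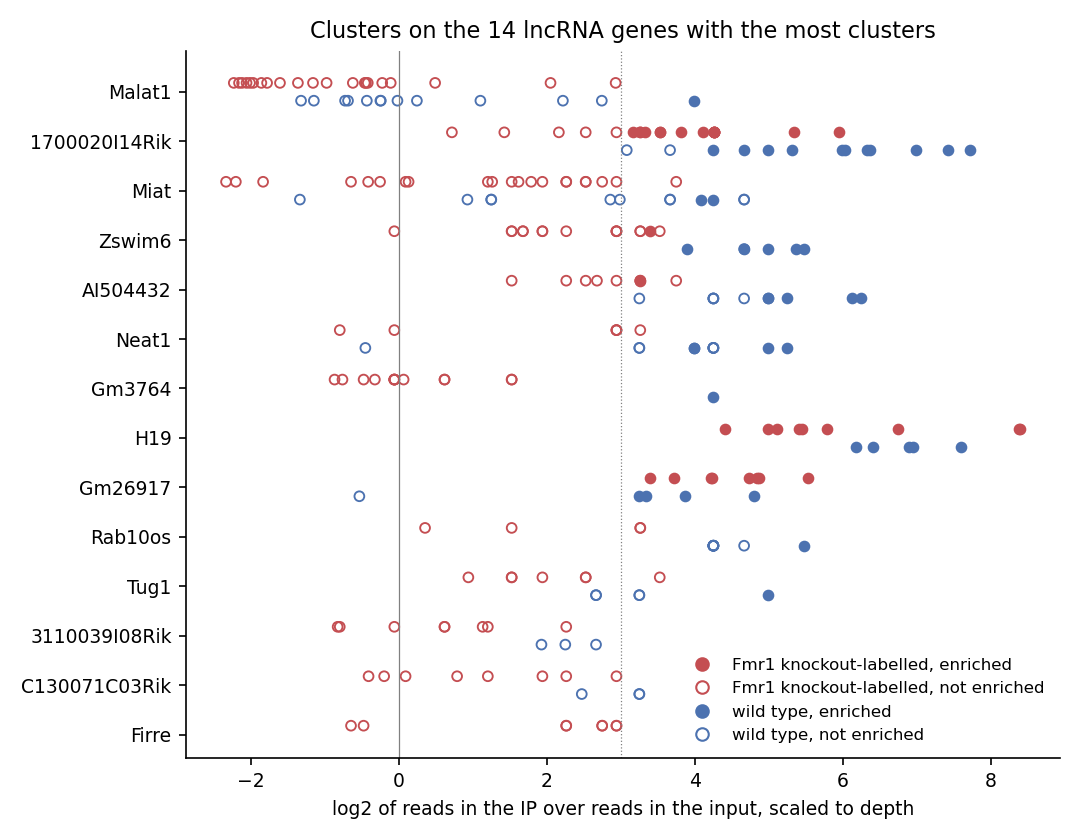
Every cluster of the 14 lncRNA genes with the most clusters, by log2 of IP over input (x axis), with the Fmr1 knockout-labelled IP (red) above the wild-type IP (blue) for each gene; filled points are enriched, the solid line marks 0 and the dotted line the limit of 3. All H19 points are filled, whereas Malat1 has 1 filled point, from wild type.

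Hosts of miRNAs other than H19 were enriched about as often as all clusters. By the RefSeq hairpins used here, 17 of the 155 genes have a miRNA hairpin inside them. Mir124a-1hg is not among the 17, so the next counts leave its clusters out. Outside H19, 2 of the 54 clusters on these 17 genes were enriched in the knockout-labelled library and 6 of 26 in wild type. Of all clusters, 3.08% and 24.1% were. Gm3764, which spans miR-9-1, had 13 clusters in the knockout-labelled library, none enriched (highest log2 1.52), and 1 in wild type, enriched with 6 IP reads (4.25). C130071C03Rik, which spans miR-9-2, had 8 and 3 clusters, none enriched. Mir9-3hg had 0 enriched of 4 and 1 of 2. 3110039I08Rik, or Mir100hg, which spans miR-100, let-7a-2 and miR-125b-1, had 0 of 8 and 0 of 3. Mir124a-1hg had 4 clusters in the knockout-labelled library, the nearest to its miRNA at 12 reads against 4 (2.52), and none in wild type.

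Of 24 hosts of snoRNAs sought, the guides of rRNA modification that are cut from introns, 21 were found in GENCODE. In the knockout-labelled library 4 had clusters, 10 in all, and in wild type 3 had 7. None was enriched, where 3.08% and 24.1% of all clusters were, so with so few clusters nothing is read from it. Dancr had 6 clusters in the knockout-labelled library, of which the most heavily covered of the highest pair held 197 IP and 49 input reads (log2 2.95, just under the limit), and 1 in wild type, below its input (-0.34). Snhg1 had a cluster of 202 reads against 87 in the knockout-labelled library (2.15), within 200 bases of 2 snoRNA genes. Zfas1 had 4 clusters in wild type alone, of 3 or 4 reads each. Of 20 RNAs of neural genes, 8 had clusters in the knockout-labelled library, none enriched, and 4 had clusters in wild type, 1 of them, Miat, enriched. By cluster, 0 of 31 and 2 of 16 (12.5%) were enriched, beside 3.08% and 24.1% of all clusters. Sox2ot, the transcript that overlaps Sox2, had 3 clusters and 1, with 1.52 to 2.52 in the knockout-labelled library and 3.66 in wild type. Of RNAs known to bind or trap a small RNA or an RNA-binding protein, 7 were found in GENCODE by the symbols listed, and 5 had clusters in either library. Enriched clusters lay on Cyrano and H19 in the knockout-labelled library and on all 5 in wild type, which also include Malat1, Neat1 and Tug1. They were 23 of 63 clusters (36.5%) and 22 of 47 (46.8%), beside 3.08% and 24.1% of all clusters. Cyrano gave 14 and 11 of them, and H19 9 and 5, so these shares mostly count again the leading genes described above. The list was chosen with earlier results of these data known, so nothing is read about such RNAs as a class. Cdr1os, listed under another symbol (C230004F18Rik) in GENCODE, had 1 cluster in the knockout-labelled library, of 3 reads against at most 1 and not enriched.

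The 23 genes enriched in wild type alone rested, apart from Malat1, on 5 to 15 IP reads at the enriched cluster with their highest log2. The highest log2 was that of Tmem134, which RefSeq types as protein-coding: 7 reads against at most 1 in the knockout-labelled library (3.75, not enriched), and 15 against at most 1 in wild type (6.57). A pair of abutting clusters on 4930563E22Rik, also protein-coding in RefSeq, held 10 reads each against at most 1 in wild type (5.99) and had no cluster of the knockout-labelled IP within 50 bases. D130017N08Rik had 10 reads against at most 1 at its wild-type cluster (5.99), and 3 clusters in the knockout-labelled library reached 2.94.

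Seed matches of 11 miRNA families of brain were sought in the 60 bases around the midpoints of enriched clusters, on the strand of the gene. The families were let-7, miR-9, miR-15/16, miR-30, miR-17, miR-125, miR-128, miR-26, miR-7, miR-181 and miR-137. A match was 7 bases pairing with seed bases 2 to 8, or with bases 2 to 7 and followed by A. In the knockout-labelled library 9 of 38 windows held a match (23.7%, 11.4 to 40.2), beside 34.6% of enriched 3′ UTR windows and 27.8% of all enriched windows. In wild type 16 of 66 did (24.2%, 14.5 to 36.4), beside 29.3% and 21.5%. The interval of the lncRNA share holds both of the other values in either library. Windows of abutting clusters can hold the same match, so these intervals are too narrow.

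By family, miR-30 was matched in 3 windows of the knockout-labelled library, all on Cyrano, and in 3 of wild type, on Cyrano and A730056A06Rik. Matches to miR-125 lay at the same sites of A830082K12Rik and AI504432 in both libraries. The A830082K12Rik window (chr13:78235162-78235221, plus strand) is given with its match in capitals.
miR-125b-5p: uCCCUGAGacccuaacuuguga
A830082K12Rik window: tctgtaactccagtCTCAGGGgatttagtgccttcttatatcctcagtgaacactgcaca
No enriched lncRNA window held a miR-7 or miR-26 match in either library. For let-7, matches stood in wild type alone, in 3 windows on 4930570G19Rik and Zswim6. Those on 4930570G19Rik are windows of abutting clusters and hold the same match. A match is a description of the letters and does not name the miRNA that was bound.

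Enriched lncRNA windows held no G-quadruplex motif, a pattern of 4 runs of at least 3 G with loops of up to 7 bases, in the 160 bases around their midpoints: 0 of 38 in the knockout-labelled library (interval to 9.25%) and 0 of 66 in wild type (to 5.44%). Among all enriched clusters, 4.41% and 4.22% held one, within those intervals. The median G and C content of enriched lncRNA windows was 45.8% and 46.7%, beside 50.8% and 48.3% for enriched 3′ UTR windows. Along the exonic length of their genes, enriched clusters were spread out, with median positions of 51.0% in the knockout-labelled library and 48.6% in wild type.

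The sites were then compared between the libraries. Of the 38 enriched lncRNA clusters of the knockout-labelled library, 29 overlapped an enriched wild-type cluster by at least 1 base (76.3%, 59.8 to 88.6), beside 63.1% of all enriched clusters. Of the 66 of wild type, 23 overlapped an enriched cluster of the knockout-labelled library (34.8%, 23.5 to 47.6), beside 15.1% of all. Most of the 29 and of the 23 lay on Cyrano, H19 and Gm26917. Several knockout-labelled clusters could overlap the same wild-type cluster, so the clusters are not independent and these intervals are too narrow. In 117 overlapping pairs on 36 genes, the log2 over input was higher in wild type in 95, and the median of wild type minus knockout-labelled was 0.97 (quartiles 0.29 and 2.05). A cluster can stand in several pairs, as on Malat1 and Dancr, so the pairs are not separate sites. The same difference over all clusters was not computed. The inputs differ in depth: where no input read was found, the same number of IP reads gives a lower log2 in the knockout-labelled library than in wild type. The part of this in the difference was not tested.

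A further comparison, in the authors' deposited table, is of the wild-type over the knockout-labelled IP at 46862 regions, nearly all of them called in wild type, so a positive log2 means more reads per depth in wild type. In it, 202 regions lay on lncRNA exons. Of these, 19 were past, in the authors' deposited table, a -log10 p of 3 and a log2 of 1 (9.41%, 5.76 to 14.3), where 3.39% of all regions were. They lay on 8 genes: 8 on Cyrano, 3 on H19, 2 each on AI504432 and 4930563E22Rik, and 1 each on Malat1, Zswim6, Tmem134 and Gm16536. The p compares the reads of 2 libraries and not the genotypes. The median log2 of lncRNA regions in the authors' deposited table was 2.14, beside 2.77 over all regions, but 40.1% of the lncRNA regions had at most 1 knockout-labelled read. Regions of this table were called in the wild-type IP, and clusters called in the knockout-labelled IP alone are not in it.

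The 39 lncRNA regions with 20 or more recovered reads in all had a median log2 of 0.68 in the authors' deposited table, with 30 above 0 and 9 below. The 10 regions without recovered reads, on Dancr, Gm27000, Malat1, Miat, Neat1 and Rmrp, were all below 0 (-1.99 to -0.15 in the authors' deposited table), so this balance leans towards wild type. The 3087 other regions with as many recovered reads, outside miRNA genes, had a median of 0.38. Past the limits were 13 of the 39 (33.3%), beside 8.49% of the 3087. Of the 13, in the authors' deposited table, 8 lay on Cyrano and 3 on H19. The share without these genes was not computed, so nothing is read from it about lncRNA exons in general. The highest of the 39 was a Cyrano region at 119602613 to 119602635, with 17 reads in the knockout-labelled IP and 38 in wild type (log2 2.35 in the authors' deposited table). The next were the Cyrano region at 119602576 with 9 and 20 reads (2.34), Tmem134 with 8 and 15 (2.09), and the Cyrano region with a miR-30 match with 43 and 60 (1.67), all from the authors' deposited table.

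Summed over regions of the authors' deposited table, Cyrano had 293 knockout-labelled and 368 wild-type reads, a log2 of wild type over knockout-labelled of 1.52 (counting interval 1.29 to 1.74). All 10 of its regions with 20 or more reads were above 0 there. H19 had 454 and 464 reads in the authors' deposited table (1.22, 1.03 to 1.41), with 208 and 182 at its strongest region. AI504432 had 34 and 55 (1.88, 1.24 to 2.54) and Neat1 18 and 39 (2.30, 1.46 to 3.20) in the same authors' deposited table. Malat1, with 2440 and 1080 reads in the authors' deposited table, stood at 0.01 (-0.09 to 0.12). These sums leave out 4 Malat1 regions (-0.54 to -0.15 in the authors' deposited table) and 1 Neat1 region (-0.55), all without recovered reads, so both genes' sums lean towards wild type. Abutting regions may share reads, which makes these intervals too narrow.

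The lowest lncRNA regions with recovered reads were on Gm26917. In the authors' deposited table its regions at 39844074, 39843127 and 39845979 had log2 values of -1.74, -1.57 and -1.16, with 267, 669 and 117 reads in the knockout-labelled IP against 35, 99 and 23 in wild type. That table lists no p for regions below 0; with p computed from recovered reads, which 192 of the 202 lncRNA regions had, these 3 were past the same limits as lower, where 0.174% of all regions were. The other 10 could not be tested, among them Dancr, the lowest of all at -1.99, and Gm27000 at -1.53 in the authors' deposited table. Summed over its regions in the authors' deposited table, Gm26917 had 1069 and 175 reads (-1.42, -1.66 to -1.19), beside Gm42418 at the 18S copy with 1019 and 413 (-0.11, -0.28 to 0.05). Next among regions with 20 or more recovered reads were Tug1 with 16 and 4 reads (-0.81) and a Malat1 region with 1100 and 315 (-0.62). After them came a Gm42418 region at 39847918 with 30 wild-type reads (-0.43) and Gm16599 with 34 and 13 (-0.20), all in the authors' deposited table.

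**Figure D4:**
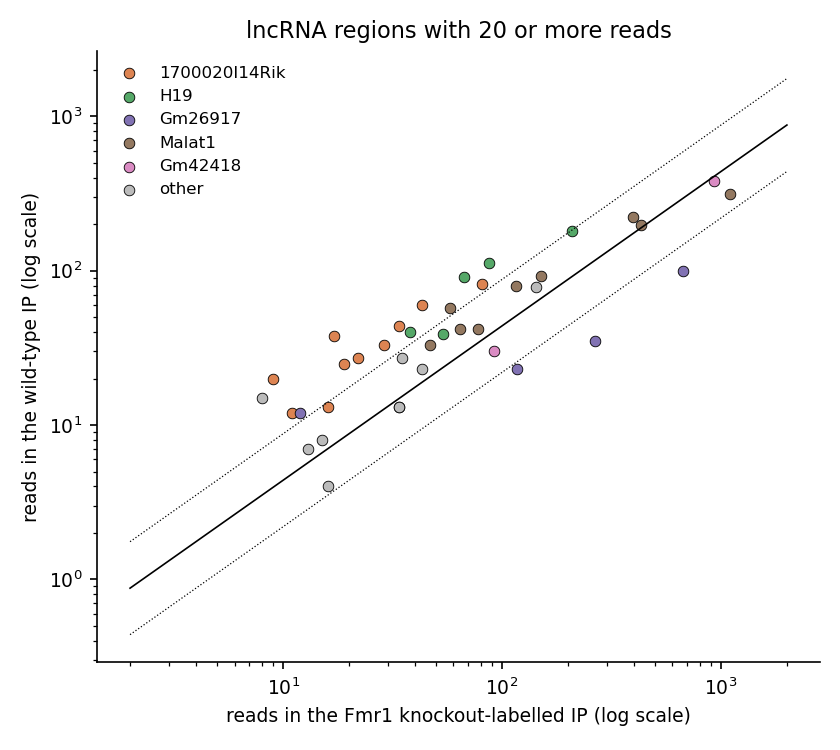
Reads of the 39 lncRNA regions with 20 or more reads in the Fmr1 knockout-labelled IP (x axis, log scale) and the wild-type IP (y axis, log scale), coloured by gene. The solid line marks equal reads per depth and the dotted lines a log2 of 1 to either side; 3 Gm26917 regions lie below the lower dotted line, and Cyrano and H19 regions lie above the solid line.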

How the data were processed

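AGO2 IPs and size-matched inputs of P0 whole brain were sequenced, 1 library per group. Per the labels' protocols, reads on mouse repeats were removed, the rest were mapped to mm10, UMI tools 5.2 took out PCR duplicates and CLIPper 1.4 called the clusters of each IP. Cutadapt 1.15 and STAR 2.6.0c are named in the submitters' processing notes. The deposited scores are a -log10 p, listed up to 400 and as 0 below a log2 of 0, and a log2 ratio of read density that the authors scaled to depth. How the table of wild-type over knockout IP was made is not given in the sources used here.

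Reads were recovered from the deposited log2 and -log10 p as the whole numbers that give both scores, with 0 reads in the denominator counted as 1. The recovery was tested on simulated data and met the known reads in 100% of simulated regions with a p between the listed ends. The simulation drew only on regions whose reads had been recovered, so it does not bear on clusters without recovered reads. In the deposited scores, reads were recovered for 294 of the 363 lncRNA clusters of the knockout-labelled library and 191 of the 202 of wild type. Counts by reads are over these. Regions were placed on GENCODE M21 and RefSeq with Python 3.11.15, pandas 2.3.3, scipy 1.17.1 and pysam 0.24.0, and exact 95% binomial intervals were used. Without replicates there was no test of genotype, and the intervals cover counting error only. In either library the median lncRNA cluster held 4 IP reads, which limits every single value.

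The genes named are the 10 with the highest -log10 p and the 10 with the most clusters in each library, the 10 highest and 10 lowest regions with 20 or more reads between the IPs, and up to 4 of each gene list (hosts of miRNAs, hosts of snoRNAs, nuclear-retained RNAs, neural RNAs, and RNAs that bind a small RNA or RNA-binding protein). Other genes named were chosen after their values were seen. The clusters and lists were chosen with earlier results of these data known. Other limits, overlaps, windows and gene sets were tried. The chromosome 12 stretch, with 77 clusters in the knockout-labelled library and 46 in wild type, was left out of the main values, and miR-124 seeds were not analysed here.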

Additional observations from a re-analysis of the deposited data

How the results depend on the processing

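With 1 library per genotype, every difference between genotypes is one between 2 libraries, and lncRNA clusters mostly rest on a few reads. Of 48 alternative values, 35 lay within the interval of the reported value and 13 lay outside. None changed sign, but most are percentages, which cannot, so nothing is read from that. The share of enriched lncRNA clusters was 5.79% in the knockout-labelled library and 16.8% in wild type at stricter limits of 5 and 4, and 63.0% and 71.4% among clusters with 10 or more recovered IP reads, which leaves out most clusters below 0. In lincRNA genes alone it was 16.6% in the knockout-labelled library. By settings chosen after seeing the data, 7.26% of genes in the knockout-labelled library and 40.5% in wild type had an enriched cluster. Without Cyrano, H19 and Gm26917, also chosen after seeing the data, the shares of clusters were 2.15% and 25.7%. All clusters stood at 3.08% and 24.1%, each within the counting interval of the share without these genes. Of enriched wild-type clusters, 62.1% lay on any cluster of the knockout-labelled library. At limits of 5 and 2, 0.495% of lncRNA regions (1 of 202) were higher in wild type in the authors' deposited table. The median log2 of that authors' deposited table was 0.68 over lncRNA regions with 20 or more reads, and 0.81 when genes typed otherwise in RefSeq or at the 18S copy were also left out, a choice made after seeing the data. Where the limits or the gene set differ, the alternative's own construction sets the value; other causes were not tested. No paired analysis was possible because each genotype has 1 library.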
